A study of Mus musculus with 24 samples.

Results

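The cells described here are 472 mouse motor cortex cells that carried UMIs (unique molecular identifiers, 1 per captured transcript) of Slc17a7, Fezf2 and Bcl11b. They were chosen from 50361 motor cortex cells with at least 1000 UMIs, 500 genes and at most 20% mitochondrial UMIs. The rule asked for at least 1 UMI of each of the 3 genes, no Gad1 or Gad2 UMI, and no UMI of Foxp2, Syt6, Tshz2 or Otof. Slc17a7 encodes the vesicular glutamate transporter of cortical projection neurons, and 18395 cells were Slc17a7-positive without Gad1 or Gad2. The members were 2.57% of these (95% Wilson interval 2.35 to 2.80), and the other 17923 are called the other glutamatergic cells. Since measured UMIs of these genes chose the members, their levels are given as a description only.

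The motor cortex libraries came from Fos-CreER::Ai9 mice, in which 4-hydroxytamoxifen lets a Fos-driven, inducible Cre recombinase switch on the tdTomato reporter in recently active cells. Every group received 4-hydroxytamoxifen. The early mice had trained for 2 days on a reaching task with the forelimb and the late mice for 8 days, while control mice did not train, and tissue was taken 3 days after labelling. Tissue of 2 mice was joined by hemisphere, so the replicate is a pool of 2 mice, with 2 pools per stage and 12 motor cortex libraries. The labels give no ages and no replicate numbers, so pools 1 and 2 of a stage are names only.

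In the mouse cortex, Fezf2 is a transcription factor that directs neurons of the deep layers to project out of the cortex, and Bcl11b (also called Ctip2) acts downstream of it in corticospinal neurons. Layer 5 extratelencephalic neurons, which send axons to the spinal cord and brainstem, carry both at high level. Layer 6 corticothalamic neurons, layer 6b neurons and near-projecting neurons also transcribe one or both genes, so the pair does not define a single cell type. Fezf2 lies on chromosome 14 (bases 12342094 to 12348189) and Bcl11b on chromosome 12 (107910403 to 108003602) of GRCm38, as annotated by GENCODE.

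The 6 pools held between 60 and 112 members. Control pool 1 had 67 and control pool 2 had 94, the early pools 64 and 75, and the late pools 60 and 112. The left library of control pool 1 gave 4 of its 67 members. Members had a median of 9277.5 UMIs per cell, against 7206 in the other glutamatergic cells. The pool medians were 8203 and 14185 in control, 16092 and 6842 in early, and 9827 and 7820 in late. A doublet score marked 34 members (7.203%), against 5.04% of the other glutamatergic cells. Control pool 1 and late pool 1 were sequenced in a batch of their own (HVYK3BBXX). Early pool 1 and control pool 2 shared another, and early pool 2 and late pool 2 had 1 each. The libraries of batch HVYK3BBXX shared 272 cell barcodes with each other over 6 pairs. Libraries outside that batch shared 153 over 28 pairs, which include pairs across different batches. Between the libraries of HVYK3BBXX and those outside it, 20 were shared over 32 pairs. The reason for this pattern was not tested. Control pool 1, titled as male and female, had Xist UMIs in 0 of its 67 members, which allows a share of up to 4.48%, and UMIs of Y-linked genes in 26. Among all its Slc17a7-positive cells, 4 of 2473 had Xist and 791 a Y-linked gene. The other 5 pools carried both kinds of cell, so the counts of genes called against control are also given without it.

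Most members passed the rule on few UMIs. Fezf2 had exactly 1 UMI in 303 members (64.2%), Bcl11b exactly 1 in 198 (41.9%), and both stood at 1 UMI in 140 (29.7%). Among 10293 microglial cells, which should lack both genes, 0.301% had a Fezf2 UMI, 0.525% a Bcl11b UMI and 2 cells both, at a median of 1887 UMIs. Microglial cells were those with UMIs of at least 2 of Cx3cr1, P2ry12 and Csf1r and no Slc17a7 UMI. Cells with stray Slc17a7 RNA were thus left out, and these shares can understate the background. Just outside the rule lay 819 cells with Fezf2 and no Bcl11b, with a mean of 1.62 Fezf2 UMIs against 1.74 in members. Another 1942 had Bcl11b and no Fezf2, with a mean of 1.83 Bcl11b UMIs against 2.48 in members. A further 2963 cells had both genes and were kept out by an exclusion gene, Foxp2 in 70.4% of them, Syt6 in 54.4%, Tshz2 in 31.0% and Otof in 0.169%. Of these, 383 (12.9%) were kept out by 1 UMI.

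The label of layer 5 neurons did not hold for most of the members. The glutamatergic cells were clustered without the rule genes, and clusters were named by markers. The lists used for naming still held the exclusion genes, with Foxp2 and Syt6 among the corticothalamic markers. Of the 472 members, 158 (33.5%) fell in clusters with layer 6 corticothalamic markers and 136 (28.8%) in the layer 6b-like cluster. A further 86 (18.2%) fell in a cluster that stayed unnamed, led by Nnat, Npy, Galnt14, Oprk1 and Osr1, of which Osr1 and Oprk1 stand on the layer 6 intratelencephalic marker list. The layer 5 extratelencephalic-like cluster held 44 members (9.32%; 95% Wilson interval 7.02 to 12.3), and these were 59.5% of its 74 cells. The last 48 members were spread over other clusters. Of these, 13 (2.75% of all members) were layer 5 intratelencephalic-like. Another 17 lay in microglia-like, astrocyte-like, vascular or oligodendrocyte-lineage clusters. The members are therefore called Fezf2- and Bcl11b-positive cells, after their rule.

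**Figure D1:**
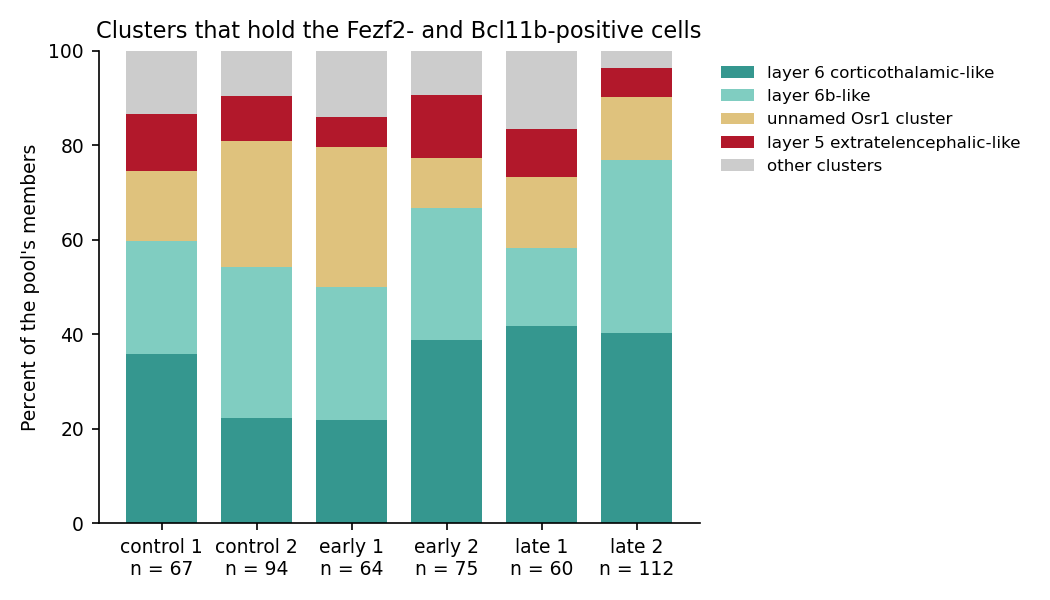
Share of each pool's members (vertical axis, percent) in 5 groups of clusters, 1 bar per pool of 2 mice with its number of members. Extratelencephalic-like members (red) made up 6.25 to 13.3% of the members in every pool, and layer 6 corticothalamic-like members 21.9 to 41.7%.

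The mixture differed between pools of the same stage. Corticothalamic-like members were 35.8 and 22.3% of the control pools, 21.9 and 38.7% of the early pools, and 41.7 and 40.2% of the late pools. Layer 6b-like members were 23.9 and 31.9%, 28.1 and 28.0%, and 16.7 and 36.6% in the same order. The Osr1 cluster held 14.9 and 26.6%, 29.7 and 10.7%, and 15.0 and 13.4%. For the Osr1 cluster, the highest and the lowest pool were both early. The stages overlapped for each of these shares except the corticothalamic-like one, where the late pools stood above the rest. Any difference between stages in the members summed together includes this mixture, and fewer cells of a kind and less RNA per cell cannot be told apart there.

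The makeup of the members also varied with the number of rule UMIs, which is a description, since the rule used them. Among the 103 members with at least 6 UMIs of Fezf2 and Bcl11b together, 30.1% were extratelencephalic-like, compared with 3.93% of the 229 members with 3 to 5 UMIs and 2.86% of the 140 members with 2. Layer 6b-like members were 30.1, 31.0 and 24.3% in the same order. The members with 6 or more were also deeper, with a median of 14681 UMIs per cell against 7768 in those with 2. Levels are given as CPM, the UMIs of a gene in the summed cells scaled to a common total. Extratelencephalic-like members carried 244 CPM of Fezf2 and 397 CPM of Bcl11b. Corticothalamic-like members carried 232 and 291, layer 6b-like members 142 and 190, and members of the Osr1 cluster 82.5 and 160. The rule set a floor of 1 Fezf2 UMI per member. Among the 1939 cells of the Osr1 cluster outside the rule, 2.68% carried Fezf2, at 3.70 CPM. Outside the rule, Fezf2 was found in 49.3% of the corticothalamic-like, 47.2% of the layer 6b-like and 70% of the extratelencephalic-like cells. The corticothalamic-like members also had the lowest median depth, 6391 UMIs against 7795 in the 4466 cells of the same clusters outside the rule. Of those 4466, 74.8% carried Foxp2 and 60.01% Syt6, the genes whose absence the rule required.

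The extratelencephalic-like cluster was named from the layer 5 output neuron markers, among them Pou3f1, Nefh, Parm1, Vat1l, Npr3 and Fam84b, so their levels are a description. Pou3f1, a POU-domain transcription factor, was found in 95.5% of them and in at most 5.81% of the members of the other 3 groups. Coro6, an actin-binding protein, was found in 84.1%, and Chst8, a sulfotransferase, in 90.9%. Nefh, the heavy neurofilament of large axons, was found in 81.8%, and Parm1 in 86.4%. Vat1l was found in 50%, Npr3, a natriuretic peptide receptor, in 52.3%, and Fam84b in 45.5%. Etv1, a layer 5 transcription factor, stood at 366 CPM against 7.23 to 25.3. A doublet score marked 22.7% of these 44 members.

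The corticothalamic-like clusters were likewise named from a list that holds Rprm, Hs3st4 and Tbr1. The layer 6b-like cluster was named from a list that holds Cplx3, Ctgf and Nxph4. Levels of these genes are thus a description too. Corticothalamic-like members were marked by Rprm, found in 91.1% at 921 CPM. Crym, a thyroid hormone-binding protein, was found in 82.3% of them at 377 CPM, and in 75% of extratelencephalic-like members at 437 CPM. Hs3st4, a heparan sulfate sulfotransferase, was found in 84.2% of corticothalamic-like members at 410 CPM. In layer 6b-like members it was found in 97.8% at 472 CPM. Layer 6b-like members carried the complexin Cplx3 in 100% of cells at 1819 CPM, against at most 8.98 CPM in the other 3 groups. They also carried the secreted matricellular gene Ctgf in 97.1% at 932 CPM and the neurexophilin Nxph4 in 86.8% at 259 CPM. Drd1, the D1 dopamine receptor, was found in 52.9% of layer 6b-like members and in 6.96% of corticothalamic-like members. Members of the Osr1 cluster carried Nnat, an imprinted proteolipid gene, in 64.0% at 300 CPM, the neuropeptide gene Npy in 39.5% and the kappa opioid receptor gene Oprk1 in 32.6%. Tbr1, a transcription factor of layer 6, was found in 76.6% of corticothalamic-like, 81.6% of layer 6b-like, 65.1% of Osr1-cluster and 22.7% of extratelencephalic-like members.

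**Figure D2:**
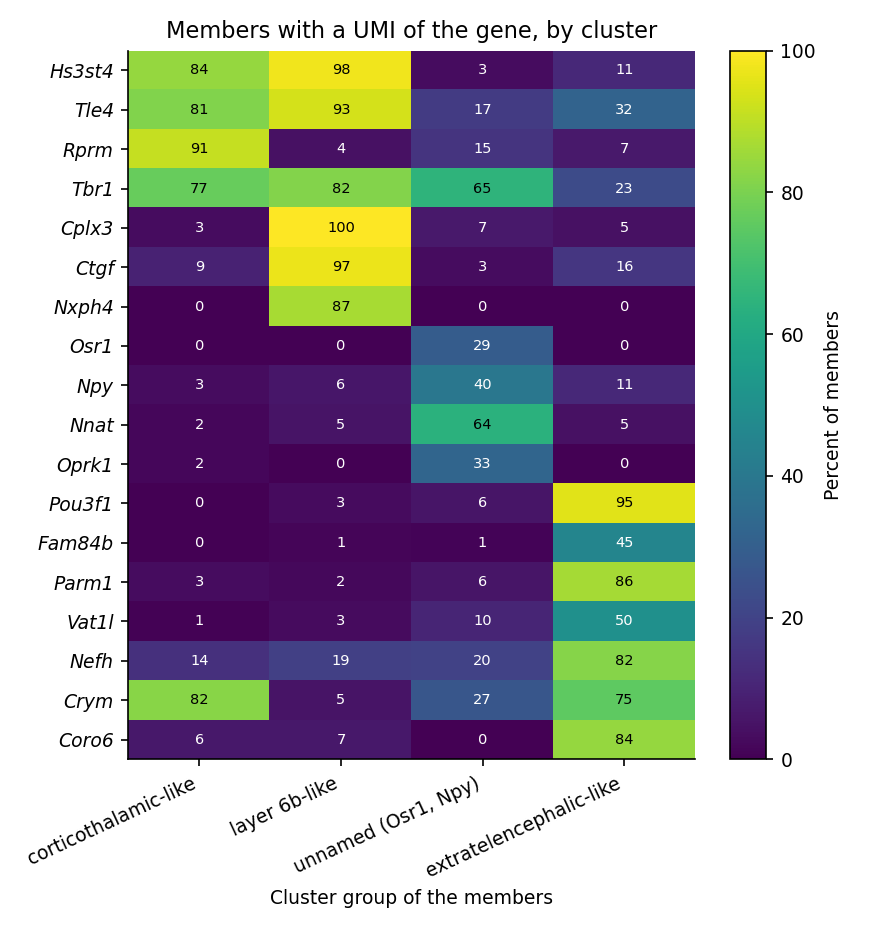
Percent of members with at least 1 UMI of each gene (rows) in 4 groups of clusters (columns), with the value printed in each cell. Cplx3 was found in 100% of layer 6b-like members and Pou3f1 in 95.5% of extratelencephalic-like members, with little of either in the other groups. The named clusters got their names from marker lists that hold several of these genes, so the values are a description.

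Against the other glutamatergic cells, the summed members were led by layer 6b genes. This is a description, since the rule chose the cells. Among 5881 genes with at least 20 CPM in the members of every pool, 846 (14.4%) were higher in members in 6 of 6 pools and 686 (11.7%) lower in 6 of 6. Cplx3 had the largest median log2 ratio, 2.64, with a mean of 637 CPM in members and 96.3 CPM in the others. In members it stood at 635 and 714 CPM in control, 645 and 736 in early, and 434 and 660 in late. The others had 67.0 to 126 CPM, so the sets of pools did not overlap. Nxph4 followed with a median log2 ratio of 2.51, Ctgf with 2.27, Tmem163 with 2.02 and Igfbp5, a growth factor-binding protein, with 1.70. Each of these genes stood highest in the layer 6b-like members.

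Ctgf differed by batch as well as by cell class. In members it stood at 147 and 80.3 CPM in the pools of batch HVYK3BBXX (control 1 and late 1) and at 365 to 483 CPM in the other 4 pools. The other glutamatergic cells showed 15.1 and 15.3 CPM against 43.9 to 99.7 CPM in the same sets of pools. Of the 25 genes with the highest ratios, 3 stood highest in the extratelencephalic-like members. They were S100b, a calcium-binding protein, at 314 CPM there and 56.6 CPM over all members, Parm1 at 259 and 33.5 CPM, and Kcng1, a modulatory potassium channel subunit, at 105 and 29.8 CPM. The lowest genes in members were Camk2n1, an inhibitor of CaM kinase II, with a median log2 ratio of -1.49, followed by Lamp5, 2900055J20Rik, Enpp2 and Plcxd2. Lamp5 still stood at 456 CPM in the extratelencephalic-like members, against 85.3 CPM over all members.

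**Figure D3:**
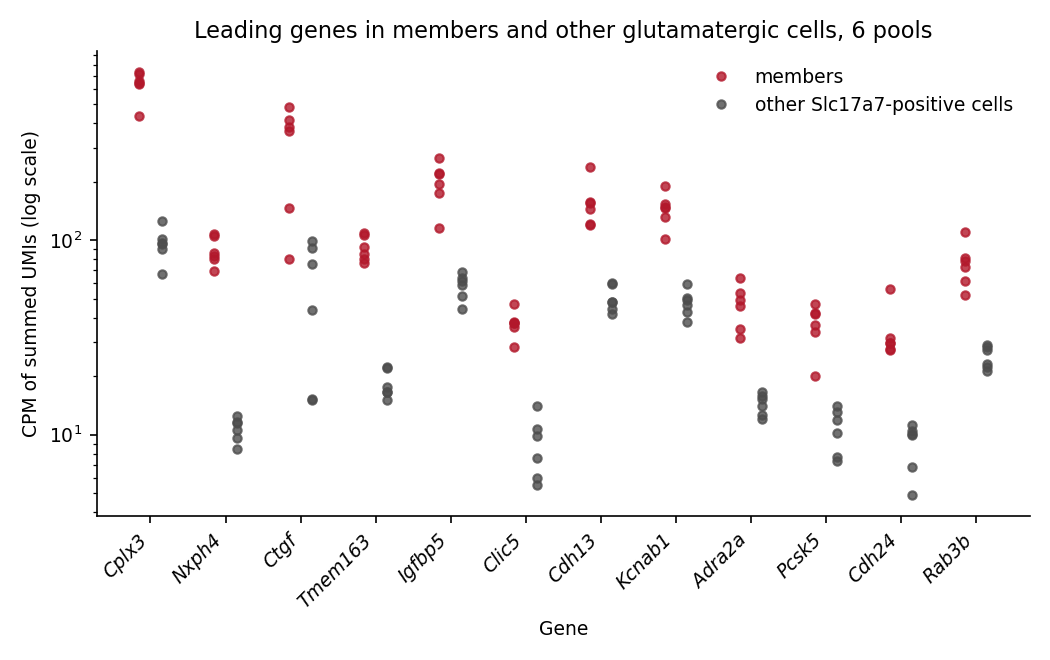
CPM of summed UMIs (vertical axis, log scale) of the 12 genes with the highest median ratio, 1 point per pool, in members (red) and in the other glutamatergic cells (grey). For Cplx3 the members stood at 434 to 736 CPM and the others at 67.0 to 126 CPM.

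Fixed gene lists were counted in the same way, against 14.4% of all 5881 genes higher and 11.7% lower in 6 of 6 pools. Of 84 nuclear-encoded oxidative phosphorylation genes that passed the level filter, 44 were higher in members in 6 of 6 pools and 0 lower, with a median log2 ratio of 0.13 against 0.00 over all 5881 genes. Of 12 mitochondrial transcripts, 5 were higher and 0 lower, with a median of 0.19. The median share of mitochondrial UMIs per cell was 2.37% in members and 2.12% in the others, and members were deeper, as given above. The part of these differences in the counts was not tested. Of 17 immediate early genes, which neurons switch on within minutes of activity, 2 were higher and 9 lower, with a median of -0.22. Of 7 corticospinal motor neuron genes that passed, 4 were higher and 1 lower. The list is not particular to extratelencephalic-like members. Its genes Cdh13, Pcp4 and Ldb2 stood at 290, 4191 and 167 CPM in layer 6b-like members and at 79.5, 2624 and 164 CPM in extratelencephalic-like members. Crym of the same list went the other way, at 7.23 and 437 CPM. Of 18 sodium and calcium channel genes, 1 was higher and 8 lower.

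Members were also compared by co-detection of markers. At least 2 of 12 extratelencephalic markers were found in 46.4% of members and 36.5% of the other glutamatergic cells. Among the 2963 cells kept out by an exclusion gene the share was 62.5%, and that list holds Crym, which corticothalamic-like members also carried. At least 2 of 6 corticothalamic markers were found in 73.5 and 50.3%, and in 96.5% of the cells kept out. At least 2 of 4 layer 6b markers were found in 29.9 and 4.56%, and in 9.72% of the cells kept out. Members were deeper than the others, and these shares were not thinned. At least 2 of 8 microglial markers were found in 8.47% of members and 8.45% of the others, and their summed level was 161 and 317 CPM.

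The share of members among Slc17a7-positive cells did not separate the stages. It was 2.71 and 2.59% in the control pools, 2.94 and 2.25% in early and 1.84 and 3.17% in late. The exact permutation test over pools gave p = 1 for each pair of stages, and with 2 pools against 2 it cannot go below 0.33. After every cell was thinned to 3000 UMIs and the rule applied again, the share was 1.62 and 1.90% in control, 1.90 and 1.70% in early, and 2.30 and 2.54% in late. The late pools then stood above the others (exact permutation p = 0.33, the lowest possible with 2 pools against 2). Thinning removes UMIs of the exclusion genes as well as of Fezf2 and Bcl11b, so cells kept out before could enter. The thinned cells are therefore not the same members at equal depth. The share rose from 1.84 to 2.30% in late pool 1 and fell from 2.71 to 1.62% in control pool 1. The part of such entering cells in the thinned shares was not tested.

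The Ai9 cassette carries a WPRE element behind tdTomato, and the files count both. A wpre UMI was found in 107 members (22.7%; 95% Wilson interval 19.1 to 26.7) and a tdtomato UMI in 4. The wpre level was 34.6 CPM in members, 61.0 CPM in the other glutamatergic cells and 37.2 CPM in microglial cells. Members with wpre were deeper, with a median of 13737 UMIs against 8684 in those without. With every cell thinned to 3000 UMIs, wpre was found in 21 of 454 members (4.63%; 3.05 to 6.97), 9.15% of the other glutamatergic cells and 10.9% of 1557 microglial cells. The thinning left out 18 members and 8736 microglial cells that were shallower. Unthinned, wpre was found in 7.03% of the 10293 microglial cells, at a median of 1887 UMIs. The members' share was thus above that of microglial cells before thinning and below that of the deepest of them after it, and wpre is not read here as a count of labelled members. The source of the wpre UMIs was not tested.

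Unthinned, the share with wpre was 13.4 and 27.7% in the control pools, 35.9 and 13.3% in early and 33.3 and 17.0% in late. The shares overlapped between all stages (exact permutation p = 1 for early and control, 0.667 for late and control, and 1 for late and early). The difference of early minus control was 4.09 percentage points, and -3.02 without control pool 1. That of late minus control was 4.60, and -2.51 without control pool 1. By cluster, the share was 34.9% in the Osr1 cluster, 19.6% in corticothalamic-like, 19.1% in layer 6b-like and 11.4% in extratelencephalic-like members.

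The comparison of early training with control asks which genes had changed after 2 days of training. Of 9400 genes tested, 5 were called by edgeR's quasi-likelihood test at an adjusted p under 0.05, which is 0.0532% of those tested. All were higher in early and all belong to microglia or the vessel wall in the brain. C1qa, C1qb and C1qc encode the chains of complement C1q, Ctss encodes cathepsin S, and Sparc a secreted matrix glycoprotein.

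C1qa stood at 20.1 and 0.749 CPM in the control members, 37.6 and 17.4 in the early and 124 and 7.18 in the late members. The control and early pools overlapped, and late pool 1 was the highest. The fitted log2 difference of early over control was 4.80 (SE 0.56, adjusted p = 8.73e-05). The fit has a term for batch HVYK3BBXX, which holds control pool 1, late pool 1 and no early pool, and all 6 pools enter it. Without the batch term, 0 genes were called.

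These transcripts came from few members. C1qa had 162 UMIs in 34 members, of which 78.4% lay in the 17 members of glial or vascular clusters and 61.1% in the 34 doublet-marked members. For Ctss the first share was 84.2% and for Sparc 84.6%. Summed over 8 microglial markers, the members of the 6 pools carried 122 and 22.5 CPM in control, 190 and 66.2 in early, and 653 and 46.2 in late, and none of the 8 was at 0. With the doublet-marked members left out, or with the members of glial or vascular clusters left out, 0 genes were called. Without the doublet-marked members the direction turned for Sparc (log2 difference 4.88, then -2.38) and C1qc (3.72, then -0.05). The counts that follow come from fits without 1 pool, in which, given the batch term, at least 1 stage compared rests on 1 pool. Leaving out control pool 1 gave 17 calls and leaving out control pool 2 gave 31. Without late pool 1 there were 16, without late pool 2 there were 14, and without early pool 1 there was 1.

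Genes of neurons stood below the threshold. Nnat, the leading gene of the Osr1 cluster, had 22.99 and 46.4 CPM in control, 178 and 68.0 in early, and 69.1 and 52.3 in late. Early pool 1 was the highest, and it also had the largest share of members in the Osr1 cluster, 29.7%. Control pool 2 had the next largest share, 26.6%, and early pool 2 the smallest, 10.7%. The shares and the Nnat levels thus did not run in the same order. The part of this share in the Nnat levels was not tested. The log2 difference of early over control was 1.79 (SE 0.36, adjusted p = 0.0645). Dner, a Notch-related membrane protein of neurons, had 41.7 and 44.9 CPM in control and 92.2 and 90.6 in early, without overlap (log2 difference 1.26, SE 0.27, adjusted p = 0.0929). Chn2, a Rac GTPase-activating protein, had 21.6 and 60.7 CPM in control and 17.9 and 19.2 in early (log2 difference -1.60, SE 0.34, adjusted p = 0.0929).

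Junb, Gadd45b, Tmem35a and Ramp3 were also non-overlapping between control and early without being called. Junb, an immediate early transcription factor, had 175 and 184 CPM in control, 276 and 317 in early, and 350 and 273 in late. Its log2 difference was 0.82 in early (SE 0.21, adjusted p = 0.381) and 0.81 in late (SE 0.19, adjusted p = 0.142). In the other glutamatergic cells Junb stood at 267 and 332, 425 and 465, and 390 and 356 CPM in the same order. Gadd45b, a stress and activity response gene, had 46.0 and 62.9 CPM in control members, 94.0 and 124 in early, and 95.8 and 85.1 in late (adjusted p = 0.701 for early). Tmem35a, an accessory protein of nicotinic receptors, had 41.7 and 59.9 CPM in control and 128 and 88.9 in early (adjusted p = 0.27). Ramp3, which modifies calcitonin-family receptors, had 48.9 and 41.9 CPM in control and 72.5 and 106 in early (adjusted p = 0.433).

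The late mice had trained for 8 days, and their comparison with control asks what differs after that longer training. Of 9400 genes tested, 6 (0.0638%) were called, all higher in late. The control pools are those of the comparison with early. Apoe, the apolipoprotein of astrocytes and microglia, was the only called gene whose pools did not overlap. It stood at 14.4 and 14.2 CPM in control, 16.1 and 13.9 in early, and 106 and 48.2 in late. Its log2 difference was 2.30 (SE 0.32, adjusted p = 0.00151), and 1.78 to 2.90 over the 6 fits that left out 1 pool. Of these fits, those without a control or late pool compare 1 late pool with 1 control pool, given the batch term. Of the 177 Apoe UMIs, 59.3% lay in the 17 members of glial or vascular clusters, and without those members the log2 difference was 2.80 (adjusted p = 0.138). Apoe was not called by DESeq2 (adjusted p = 0.492) or without the batch term (0.912). Its difference was 1.41 with the exclusion genes allowed, 1.19 without the doublet-marked members and 0.90 with at least 3 rule UMIs, and it was called in none of these.

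The haemoglobin genes Hba-a1 and Hba-a2, markers of red blood cells, were called, with most of their UMIs in a single cell. Late pool 1 held 1 member with 667 of the 881 Hba-a1 UMIs and 525 of the 695 Hba-a2 UMIs of all members. Hba-a2 stood at 193 and 5.24 CPM in control and 755 and 7.18 in late, so the pools overlapped. C1qa, C1qc and Ctss were called again, at log2 differences of 2.70, 2.70 and 3.50, and also with overlapping pools. Leaving out the doublet-marked members left 2 calls, and leaving out the members of glial or vascular clusters left 1. The next 2 counts come from fits that compare 1 late pool with 1 control pool, given the batch term, so they are not replicated. Without control pool 1 there were 64 calls and without late pool 1 there were 62.

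Below the threshold, Rorb, a transcription factor of layer 4 and upper layer 5, was lower in the late pools. It stood at 20.1 and 33.7 CPM in control, 14.3 and 15.7 in early, and 1.41 and 7.18 in late (log2 difference of late over control -2.51, SE 0.51, adjusted p = 0.0547). It had 92 UMIs in 33 members. Fndc5, the precursor of irisin, had 119 and 137 CPM in control, 90.4 and 73.2 in early, and 55.0 and 70.8 in late (log2 difference -0.98, SE 0.22, adjusted p = 0.114). Its late and early pools both lay below the control pools. Gm12346, Rps10-ps2 and Gm10250, the other 3 named, are annotated as processed pseudogenes, and their values are uncertain, since reads could be split with a parent gene.

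**Figure D4:**
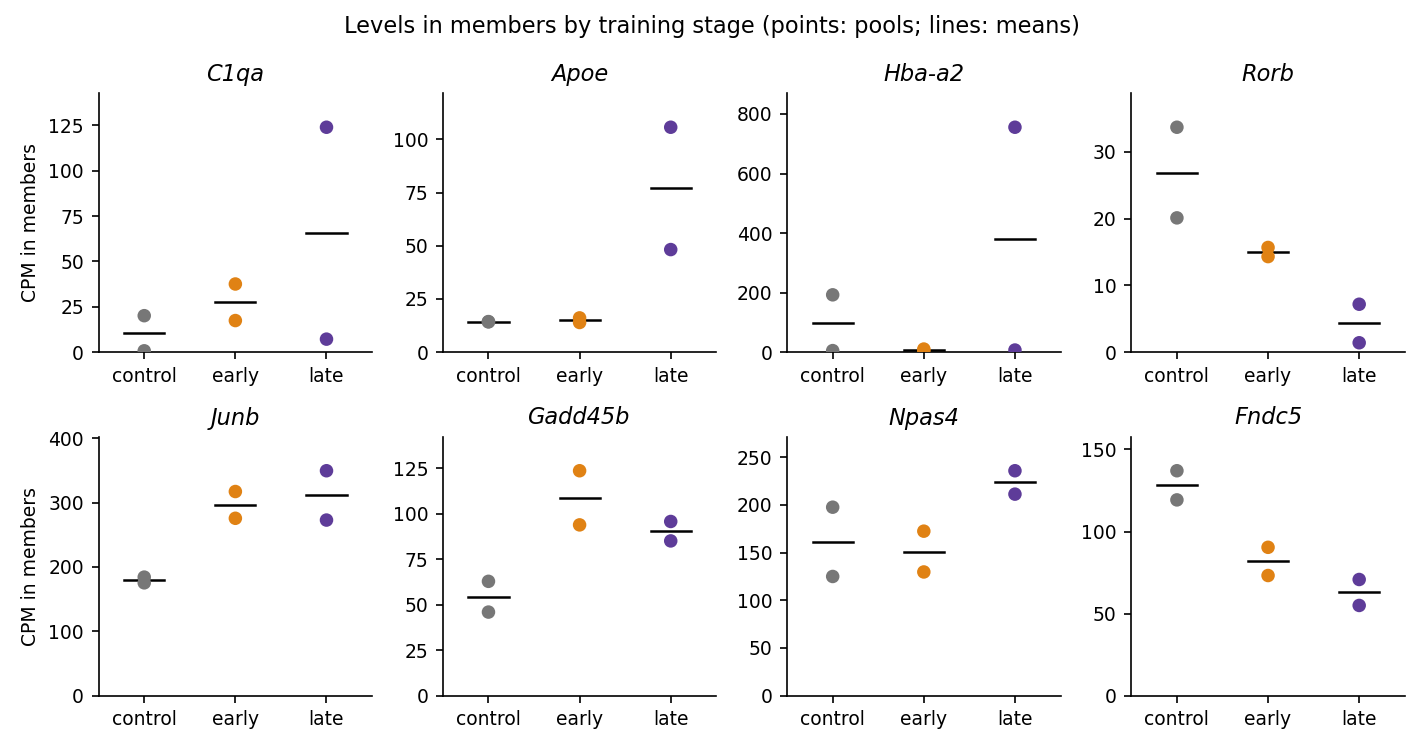
CPM in members (vertical axes, each from 0) of 8 genes by training stage, 1 point per pool of 2 mice and a line at the mean of the 2 pools. C1qa and Hba-a2 overlapped between stages with late pool 1 highest, while Junb stood at 175 and 184 CPM in control and at 273 to 350 CPM in the trained pools.

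Between late and early, 0 of 9400 genes (0%) were called by edgeR and 0 by DESeq2, and 249 had an unadjusted p under 0.05. Npas4, an activity-regulated transcription factor, had 125 and 198 CPM in control, 130 and 173 in early, and 211 and 236 in late. The late pools lay above all others (log2 difference of late over early 0.78, SE 0.23, adjusted p = 1.00).

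The immediate early genes are the family from which the labelling gene comes. Of 19 tested, 0 were called in either comparison with control. In early, 4 had an unadjusted p under 0.05 in the upward direction and 1 downward, with a median log2 difference of 0.23 against 0.01 over all 9400 genes, of which 240 and 168 did so. In late, 7 did so upward and 0 downward, with a median of 0.45 against 0.00, and over all genes 289 and 201. Fos itself stood at 103 and 121 CPM in control, 114 and 150 in early, and 148 and 126 in late (adjusted p = 0.999 and 0.983). Arc stood at 137 and 124, 123 and 99.3, and 183 and 94.4 CPM, and Egr1 at 389 and 623, 515 and 708, and 591 and 583 CPM. Neither was called, and in both genes the stages overlapped in part.

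Lists of other neuronal and housekeeping genes held no called gene. Of 10 corticospinal motor neuron genes tested, 0 were called in either comparison, with medians of 0.00 in early and 0.12 in late. Of 80 cytoplasmic ribosomal protein genes, 76 had a log2 difference above 0 in early, with a median of 0.26, and 70 in late, with a median of 0.18, and 0 were called. Of 87 oxidative phosphorylation genes, 83 and 70 were above 0, with medians of 0.25 and 0.13, and again 0 were called. Over all 9400 genes, 4766 and 4705 were above 0. The members' median share of mitochondrial UMIs was 1.38 and 1.98% in control, 2.66 and 3.28% in early, and 1.83 and 2.74% in late, so control and early did not overlap. Its part in the counts of these lists was not tested.

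Whether the stage differences of the members departed from those of the other glutamatergic cells was tested directly. For early against control, 7 of 16727 genes (0.0418%) had a different change in members. The change was greater in members for Ctss, C1qa, C1qb and Tmem35a, the last by a log2 difference of 0.99 (SE 0.21, adjusted p = 0.0107), and smaller for Ctgf, Cplx3 and Xist. Several of these directions turned in other fits. Without the doublet-marked cells C1qa differed by -0.47 and C1qb by -1.31, and without members of glial or vascular clusters C1qb differed by -0.47. Over the fits that left out a pool, C1qb spanned -0.92 (without early pool 1) to 4.30, and Xist, which was at 0 in the members of control pool 1, spanned -1.10 to 3.68 (without control pool 2). For late against control, 26 of 16727 genes (0.155%) had a different change, 13 in each direction. Leaving out control pool 1 gave 11 and 7 genes, and leaving out control pool 2 gave 1 and 31. DESeq2 called 0 in both, with 72 and 69 genes at an unadjusted p under 0.05. The difference of Tmem35a was called in 1 of 6 fits that left out a pool.

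Of the 4 layer 6b markers, Cplx3 and Ctgf were among the 26 genes. The change of Cplx3 in members, less that in the other cells, was -0.80 on the log2 scale (SE 0.10, adjusted p = 1.03e-10). Its members' levels were 635 and 714 CPM in control and 434 and 660 in late, while the other cells had 95.2 and 67.0 in control and 90.1 and 126 in late. Ctgf differed by -1.03 (SE 0.15, adjusted p = 6.93e-09). Without control pool 2, Cplx3 differed by -0.48 (adjusted p = 0.579) and Ctgf by -0.89 (adjusted p = 0.448), and neither was called without late pool 2. Late pool 1, the lowest for both, also had the smallest share of layer 6b-like members, 16.7%. Rprm, the corticothalamic marker, differed by 0.72 (SE 0.13, adjusted p = 4.45e-05), with 193 and 114 CPM in control members and 216 and 299.5 in late. Its late pools had 41.7 and 40.2% of corticothalamic-like members against 35.8 and 22.3% in control. Without control pool 2 the difference of Rprm was -0.08 and without late pool 2 it was -0.09, so its direction rests on those pools.

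Egr4 was the only immediate early gene called in this test. It stood at 84.8 and 122 CPM in control members, 106 and 167 in early, and 264 and 125 in late, and at 127 and 162, 137 and 137, and 201 and 120 CPM in the other cells. The change of late over control differed by 0.68 on the log2 scale (SE 0.16, adjusted p = 0.00967). With the members of glial or vascular clusters left out, which held 2.28% of its UMIs, the difference was 0.64 (adjusted p = 0.0766), and the adjusted p was 1 without control pool 1 and without late pool 1. Egr4 and Rorb were chosen after their values were seen. Rorb differed by -2.20 (SE 0.46, adjusted p = 0.00182), and by the same test without those members the adjusted p was 0.00554. It was called in 2 of 6 fits that left out a pool, with differences of -3.47 to -1.88.

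The other called genes were mostly of microglia, vessel cells or blood. Apoe differed by 1.88 (SE 0.30, adjusted p = 5.56e-07), by 0.57 (adjusted p = 1) without the doublet-marked cells, and by 2.17 (adjusted p = 0.0392) without members of glial or vascular clusters. It was not called by DESeq2, without control pool 2 or without late pool 2. Synpr, a synaptic vesicle protein, had 39 of its 58 UMIs in 1 cell of late pool 1. Flt1, a receptor of vascular endothelium, stood at 44.5 and 0 CPM in control members and at 0 in both late pools, with 90.9% of its UMIs in members of glial or vascular clusters. Over 4 endothelial markers the members carried 86.2 and 1.498 CPM in control, 5.37 and 34.9 in early and 2.82 and 1.03 in late, so control pool 1 was the highest. With the members of glial or vascular clusters left out, 2 genes were called for early and 11 for late.

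The trained mice reached with a forelimb, and the libraries name the hemisphere as contralateral or ipsilateral to it. Both hemispheres of a pool came from the same 2 mice, so the 4 trained pools formed 4 pairs. Of 6724 genes tested, 11 (0.164%) were called, 5 higher and 6 lower on the contralateral side.

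Nnat, on chromosome 2 (bases 157560078 to 157562522), was lower on the contralateral side in 4 of 4 pairs. It stood at 85.1 CPM contralateral and 255 ipsilateral in early pool 1, 24.2 and 128 in early pool 2, 29.5 and 122 in late pool 1, and 45.9 and 59.7 in late pool 2. The log2 difference was -1.52 (SE 0.21, adjusted p = 9.71e-09). It was called in all 4 fits that left out a pool, without the doublet-marked members (adjusted p = 2.95e-07) and without the members of glial or vascular clusters (adjusted p = 5.53e-08). It was not called with at least 3 rule UMIs (log2 difference -1.56, adjusted p = 0.0692), where 0 genes were. DESeq2 gave an adjusted p of 0.0880, and with the exclusion genes allowed the difference was -0.32 (adjusted p = 0.990).

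The share of members in the Osr1 cluster, where Nnat is highest, moved with it in part. It was 26.7% contralateral and 32.4% ipsilateral in early pool 1, 5.26 and 16.2% in early pool 2, 8.33 and 25% in late pool 1, and 14.5 and 12.3% in late pool 2. Within the Osr1 cluster's members, Nnat stood at 230 CPM contralateral and 684 ipsilateral in early pool 1, and at 233 and 524 in early pool 2. The late pools had 168 and 379, and 249 and 347. The contralateral value was therefore lower in 4 of 4 pairs within that cluster too, from 2 to 11 members per library. The contralateral value of early pool 2 rests on 3 UMIs in 2 members.

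Cplx3 was higher on the contralateral side in 4 of 4 pairs, at 825 against 497 CPM, 806 against 639, 487 against 363 and 813 against 482. The log2 difference was 0.58 (SE 0.11, adjusted p = 0.00091). Within the layer 6b-like members, Cplx3 did not keep this direction in every pair. It stood at 1836 CPM contralateral and 1798 ipsilateral in early pool 1, 2267 and 1733 in early pool 2, 1918 and 2309 in late pool 1, and 1831 and 1251 in late pool 2. The share of layer 6b-like members was higher contralaterally in early pool 1 only, at 33.3 against 23.5%, and was 26.3 and 29.7%, 16.7 and 16.7%, and 36.4 and 36.8% in the other 3 pools. Pcp4, a calmodulin regulator, was also higher in 4 of 4 pairs, at 3502 against 2415 CPM, 3090 against 2806, 5291 against 3315 and 3114 against 2496 (log2 difference 0.42, SE 0.10, adjusted p = 0.0105). Within the corticothalamic-like members Pcp4 was lower contralaterally in early pool 1, at 3347 against 4254 CPM, and higher in the other 3 pools. Neither gene was called without the doublet-marked members, with adjusted p of 0.0758 for Cplx3 and 0.227 for Pcp4, or without early pool 1, with 0.093 and 0.147. Cplx3 was also not called without late pool 2, nor Pcp4 without late pool 1 (adjusted p = 0.571).

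Nptxr, the neuronal pentraxin receptor of excitatory synapses, was lower contralaterally in 4 of 4 pairs, at 218 against 239 CPM, 112 against 173, 135 against 435 and 115 against 150. Its log2 difference was -0.69 (SE 0.15, adjusted p = 0.0105). C1ql3, a secreted synapse organiser, was lower in 4 of 4 pairs with a log2 difference of -0.72 (SE 0.17, adjusted p = 0.015). Rab3b, Nxph3 and Tmsb10 were called as higher, at log2 differences of 0.91, 0.67 and 0.54, but not in every pair.

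Cd83 and Cst3, which microglia express, were called as lower. Cst3, a secreted protease inhibitor, was also found in 85.9% of the members of these pools. Its log2 difference of -0.71 was 0.25 without members of glial or vascular clusters and 0.01 with the exclusion genes allowed, so its direction turned. Late pool 1 had the widest gap, with Cst3 at 623 CPM contralateral and 2177 ipsilateral, and without that pool 2 genes were called. Of the Cd83 UMIs in these pools, 51.8% lay in members of glial or vascular clusters, and of the Cst3 UMIs 38.2%. Of these members, late pool 1 had 2 contralateral and 4 ipsilateral. Without the doublet-marked members, Nnat was the 1 gene still called. DESeq2 called 0.

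**Figure D5:**
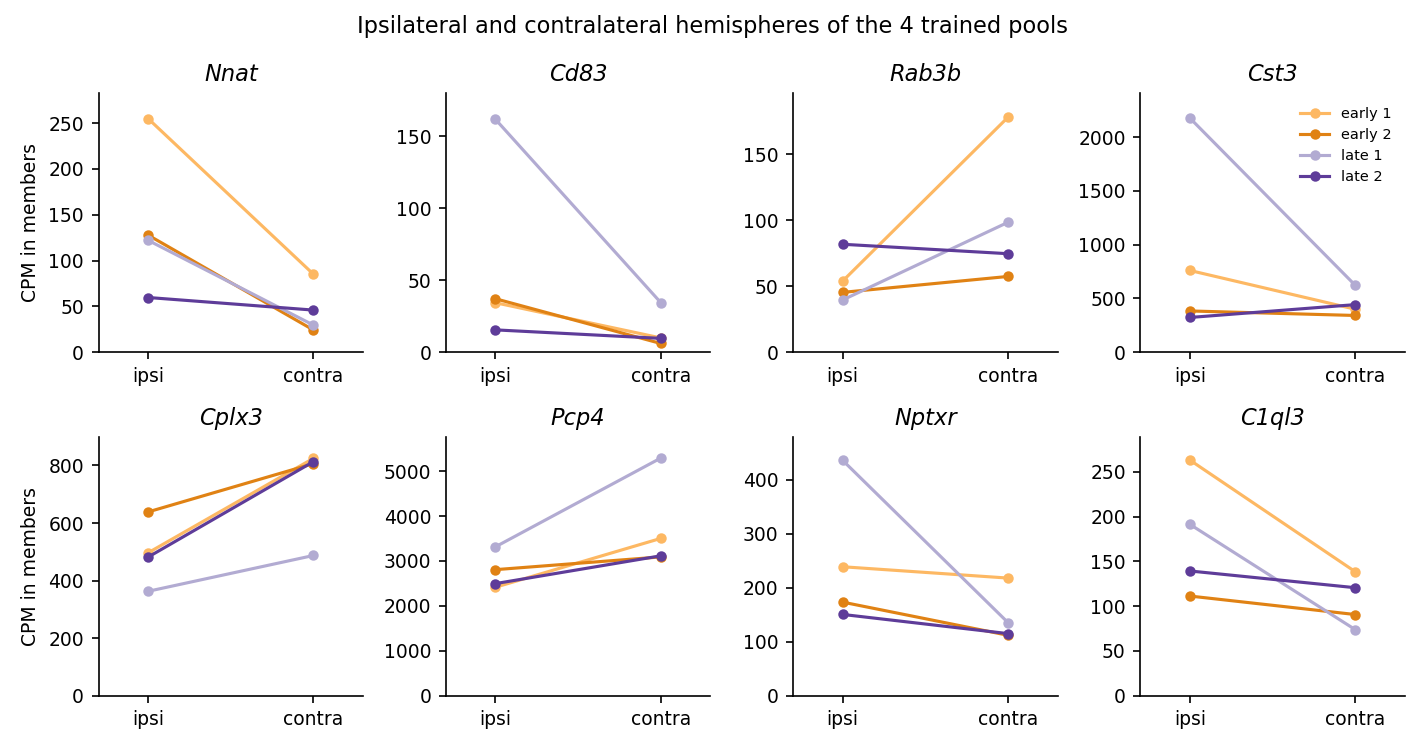
CPM in members (vertical axes, each from 0) of 8 genes called between the hemispheres, with a line joining the ipsilateral and contralateral libraries of each of the 4 trained pools. Nnat was lower on the contralateral side in all 4 pairs and Cplx3 and Pcp4 higher in all 4, while Cd83 and Cst3 were highest in the ipsilateral library of late pool 1.

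Fos, Arc, Egr1 and Npas4 were not called between hemispheres. Fos had the largest difference of the 4, -0.37 on the log2 scale (SE 0.17, adjusted p = 0.853), with means of 116 CPM ± 16.5 contralateral and 158 CPM ± 44.0 ipsilateral (SD, n = 4 pools). With the exclusion genes allowed the difference of Fos was 0.07, in the other direction. Of 17 immediate early genes tested, 0 were called, and 4 had an unadjusted p under 0.05, all lower contralaterally. Over all 6724 genes, 355 did so, 149 of them higher. Of 11 activity-induced effectors, 3 did so, also lower, and 0 were called.

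Members with and without a wpre UMI could be compared in 3 pools with at least 20 of each (control 2, early 1 and late 1). In these pools 26, 23 and 20 members carried wpre, of which 5, 5 and 4 had at least 2 wpre UMIs. The wpre level of all members, 34.6 CPM, was no higher than the 37.2 CPM of microglial cells. This split is therefore not read as labelled against unlabelled members. Members with wpre were deeper, as given above, and the part of depth in this contrast was not tested. Of 6886 genes tested, 3 (0.0436%) were called. Nefm, the medium neurofilament, was lower in members with wpre, at 63.9 against 146 CPM in control 2, 44.8 against 162 in early 1 and 100 against 135 in late 1 (log2 difference -1.17, SE 0.21, adjusted p = 0.00156). Lamp5 was lower too, at 18.3 against 127, 61.3 against 93.8 and 64.4 against 95.3 CPM (log2 difference -1.24, SE 0.25, adjusted p = 0.00621). Lamp5 stood at 456 CPM in extratelencephalic-like members and at 10.6 to 35.6 CPM in the other 3 cluster groups. Of the extratelencephalic-like members, 0 of 9 carried wpre in control 2, 0 of 4 in early 1 and 3 of 6 in late 1. Doublet-marked members held 39.0% of the Lamp5 UMIs in these pools. The part of this mixture in the contrast was not tested. Nptxr was higher, at 370 against 247, 346 against 157 and 340 against 214 CPM (log2 difference 0.78, SE 0.15, adjusted p = 0.00332). With the exclusion genes allowed, 374 genes were called, and the difference was -0.44 for Nefm (adjusted p = 2.41e-06), -0.29 for Lamp5 (adjusted p = 0.263) and 0.28 for Nptxr (adjusted p = 0.0636).

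Of the 12 extratelencephalic markers, 5 were tested in this contrast and 0 were called. Of these, 3 had an unadjusted p under 0.05, all lower with wpre, and the median log2 difference was -0.76 against 0.01 over all 6886 genes, of which 335 did so, 178 of them higher. Etv1, of the intratelencephalic list, stood at 20.5 against 63.5 CPM in control 2, 14.1 against 50.5 in early 1 and 50.1 against 74.4 in late 1 (adjusted p = 0.105). Coro6, on no list, stood at 4.56 against 26.8, 0 against 28.9 and 14.3 against 23.2 CPM (adjusted p = 0.111). Extratelencephalic-like members carried wpre in 11.4%, the lowest share of the 4 cluster groups. Fos stood at 155 against 105, 132 against 102 and 183 against 126 CPM, higher with wpre in 3 of 3 pools but not called (log2 difference 0.48, SE 0.18, adjusted p = 0.695). DESeq2 called 0 genes in this contrast.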

How the data were processed

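The values analysed are UMI counts per gene and cell, made by the authors with Cell Ranger 3.1.0 on GRCm38 (mm10) per the submitters' processing notes; the deposited matrix headers name software version 3.0.2. Per the labels' protocols, libraries were made with 10x 3' kits (version 2 or 3, not given per library). Counts of tdtomato and wpre are among the deposited features. One of 24 matrices in the series, a striatal one, is not analysed here.

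The members, gene lists and tests were chosen with earlier results of these data known. Clusters came from Leiden clustering (leidenalg 0.10.2) of the Slc17a7-positive, Gad1- and Gad2-negative cells on 2000 variable genes, without the rule, reporter and sex-linked genes, centred within batch HVYK3BBXX and within the other batches, with 30 components, 20 neighbours and resolution 1.2. A cluster was named from at least 3 detected markers of a list, with at least 1 of them among its 10 leading genes, and this naming rule was adjusted after the clusters were seen. Doublets were marked by Scrublet score (scanpy 1.11.5) in each library, at a rate of 0.8% per 1000 barcodes, and kept in the main results.

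UMIs were summed per pool (at least 20 cells) and tested with edgeR 4.0.16 (TMM, filterByExpr, quasi-likelihood test, Benjamini-Hochberg adjustment over all genes, called under 0.05) in R 4.3.3, with stage and batch HVYK3BBXX as terms over all 6 pools, which leaves 2 residual degrees of freedom. The other batches enter as one. Among them control pool 2 and early pool 1 shared a batch, while early pool 2 and late pool 2 had 1 each. For those 2 pools batch and stage cannot be told apart. All adjusted p-values in the text come from this test unless DESeq2 (1.42.0) is named. Each pool holds 2 mice, and there were 2 pools per stage. edgeR shares its estimate of the spread between pools across genes. A small p-value therefore does not show that a gene's own pools agreed. The hemisphere test used the pool as a block, because the titles give both hemispheres the same mice. The tests of members against other cells used pool, class and class-by-batch terms. The scripts were tested on simulated data.

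Named genes were the 25 highest and 10 lowest against other cells, and, per comparison, the called genes followed, up to 12, by the smallest unadjusted p among genes whose groups do not overlap. Egr4 and Rorb in the late test of members against other cells lie beyond the first 12 and were chosen after their values were seen. Some results are not reported here. Motor cortex libraries held 5260446 to 30470621 UMIs. Wilson intervals are at 95%, and they and the limits that a count of 0 allows (3 counts) cover counting error only. Alternatives were another tool, filter, cell threshold, rule and batch term, leaving out each pool, and, chosen after seeing the data, leaving out members in glial or vascular clusters.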

Additional observations from a re-analysis of the deposited data

Results flagged for a closer look

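The change between control and a training stage differed between the members and the other glutamatergic cells for 7 genes in early and for 26 genes in late, by a test of that difference (edgeR, adjusted p under 0.05). DESeq2 called 0 in both. The early genes were Ctss, C1qa, Ctgf, C1qb, Cplx3, Tmem35a and Xist. Xist was at 0 in the members of control pool 1 and at 309 CPM in those of control pool 2. For 13 of the late genes the change of late over control was greater in members and for 13 it was smaller, and the genes with the smallest p were Hba-a1, Hba-a2, Cplx3, Ctgf and Flt1. Without the doublet-marked cells, 0 and 17 genes were called.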

How the results depend on the processing

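For the stage comparisons (early minus control, late minus control, late minus early), the main counts of 5, 6 and 0 became 26, 44 and 22 with no filter on low counts, 2, 0 and 0 with DESeq2, 0, 0 and 0 without the batch term and likewise with the exclusion genes allowed, 0, 2 and 0 without doublet-marked cells, and 0, 1 and 0 without members in glial or vascular clusters (chosen after seeing the data). Leaving out 1 pool or the left library of control pool 1 gave 1 to 31, 1 to 64 and 0 to 24. The highest counts came without control pool 2 (31 and 24) and without control pool 1 (64), the lowest for early against control without early pool 1, and for late against control without the left library. For the tests of members against other cells, the counts of 7 (early) and 26 (late) became 0 and 0 with DESeq2, 0 and 17 without doublets and 2 and 11 without glial or vascular clusters. The early count was 12 without the batch term. Leaving out a pool or that library gave 1 to 23 and 7 to 36. The 11 hemisphere calls became 40 with no filter, 0 with DESeq2, 1 without doublets, 2 with the exclusion genes allowed, 0 with at least 3 rule UMIs, 6 without glial or vascular clusters, and 2 to 20 without 1 pool, lowest without late pool 1 and highest without late pool 2. With no replicate block there were 4. The 3 calls for wpre became 16 with no filter, 0 with DESeq2, 8 under stricter cell thresholds and 374 with the exclusion genes allowed. With the exclusion genes allowed, the share of such cells differed by 2.68 percentage points between early and control and by 2.491 between late and control. Among the 44 extratelencephalic-like members, the share with wpre differed by 25.89 points between late and control and 32.14 between late and early, on 3 of 6 and 1 of 7 cells in late, 0 of 4 and 0 of 10 in early and 1 of 8 and 0 of 9 in control (exact permutation p = 0.33 for both). Without late pool 1 the late share was 14.3%.

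Reversed differences are listed for the genes chosen for naming in each comparison and for Fos, and the cause was not tested. Without doublet-marked cells, early against control gave -2.381 for Sparc and -0.05417 for C1qc, and against other cells -0.4673 for C1qa and -1.308 for C1qb. Without glial or vascular clusters, C1qb was -0.4718 (early, against other cells), Apoe -0.002638 (late against early), Ly6c1 5.271 (late, against other cells) and Cst3 0.2532 (hemisphere). With the exclusion genes allowed, Cst3 was 0.01117 and Nxph3 -0.09923 and Fos 0.06632 between hemispheres, and Camk2n1 -0.1332 for wpre. Over the fits that left out a pool or the left library of control pool 1, some values reached both signs. Late against control spanned -0.7602 to 2.009 for Hba-a1. Late against early spanned -0.4728 to 2.386 for Gm12346, -0.7005 to 2.917 for Gm5805 and -0.4129 to 1.657 for Gm9843. Early, against other cells, spanned -0.9176 to 4.303 for C1qb and -1.104 to 3.677 for Xist. Late, against other cells, spanned -0.6175 to 1.402 for Hba-a1, -0.3325 to 1.418 for Hba-a2, -13.07 to 0.1498 for Flt1, -0.09209 to 1.346 for Rprm and -5.064 to 0.7331 for Ly6c1.

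The hemisphere fit has the pairing of libraries by pool in it. Fits on extratelencephalic-like members alone could not be made, since no pool held 20 of them. The wpre comparison was not run without 1 pool, without doublets, with at least 3 rule UMIs or with at least 2 wpre UMIs, since fewer than 3 pools then held 20 members in each class.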
